A study of Mus musculus with 2 samples.

Results

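Accessible chromatin was described around 8 forkhead genes of facial mesenchyme: Foxc1, Foxc2, Foxf1, Foxf2, Foxl1, Foxq1, Foxd1 and Foxd2. The 8 genes were taken by name from 21644 protein-coding genes on chromosomes 1 to 19 and X. A DNase I peak was counted for whichever gene had its protein-coding transcription start site (TSS) nearest to the peak's midpoint, which gave the 8 genes 411 of 209299 peaks in replicate 1 and 339 of 219061 in replicate 2. A peak was a promoter peak when its midpoint lay within 1 kb of a TSS and distal when it lay farther. It was shared when peaks of both libraries overlapped by at least 75 of their 150 bp. The nearest gene need not be the gene that an element regulates.

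DNase-seq finds DNA that the nuclease DNase I can reach, as at promoters and enhancers. The tissue was the facial prominence, the outgrowth that builds the face, from B6NCrl mouse embryos at day 11.5 described as healthy. The series had 1 group of 2 libraries, biological replicates 1 and 2, made from separate biosamples that carry the same donor label, each with male and female embryos pooled. There was thus no contrast between conditions, and the values below describe both libraries beside all genes. The tissue is a mixture of cell types, and in such bulk material fewer cells with an open site and a less open site in every cell cannot be told apart.

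The tissue label was checked against marker genes. Of the mesenchyme and neural crest markers 13 of 14 had a shared promoter peak, against 1 of 9 erythroid, 2 of 8 macrophage and 3 of 9 endothelial markers. Facial ectoderm markers had one at 4 of 9 genes, muscle progenitor markers at 6 of 7 and neural markers at 11 of 11. Over all protein-coding genes the share was 64.2%. The neural list was at least as open as the mesenchyme list, so these counts do not tell the 2 tissues apart. Promoter openness at a marker does not measure its expression, and the cell types that held the peaks of the forkhead genes were not tested. The depth of the libraries is unknown, and the signal that the authors gave each peak has no stated relation to depth. Signals are therefore read only within a library.

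Forkhead proteins are transcription factors that bind DNA through a winged-helix domain, and several of them can bind sites on nucleosomes. In the mouse face, members of the Foxc, Foxd, Foxf, Foxl and Foxq groups are known from genetic work as mesenchymal genes that respond to Sonic hedgehog, which the overlying epithelium secretes. Foxq1, Foxf2 and Foxc1 lie in a row on one chromosome, and Foxf1, Foxc2 and Foxl1 form the related row on another, while Foxd1 and Foxd2 lie outside these rows.

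The most open distal elements of these genes are shown first, because the results below return to them by name. They are the shared distal peaks of highest signal rank outside annotated untranslated regions, 1 for each gene that had one, with a second for Foxl1 and Foxf2 because these lie far from the gene. Each name gives the gene and the distance of the peak midpoint from its TSS in bp (negative is upstream). Sequences are 150 bases of the plus strand of mm10, and capitals mark a match to one of the short motifs spelled out further on.
Foxc2 -2640 (chr8:121113456-121113605): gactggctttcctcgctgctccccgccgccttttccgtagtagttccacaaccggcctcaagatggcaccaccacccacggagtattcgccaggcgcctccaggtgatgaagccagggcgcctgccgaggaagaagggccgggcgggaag
Foxc1 -5262 (chr13:31801296-31801445): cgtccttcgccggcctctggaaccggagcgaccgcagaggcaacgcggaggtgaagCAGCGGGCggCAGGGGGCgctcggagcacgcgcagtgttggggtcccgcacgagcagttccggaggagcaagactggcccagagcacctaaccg
Foxl1 -2269 (chr8:121125596-121125745): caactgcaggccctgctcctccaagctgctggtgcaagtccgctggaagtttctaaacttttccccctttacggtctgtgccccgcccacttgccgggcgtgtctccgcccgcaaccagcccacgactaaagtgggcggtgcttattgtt
Foxl1 +173291 (chr8:121301156-121301305): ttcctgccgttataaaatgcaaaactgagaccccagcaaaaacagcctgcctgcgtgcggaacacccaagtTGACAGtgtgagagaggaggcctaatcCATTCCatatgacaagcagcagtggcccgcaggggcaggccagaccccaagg
Foxd1 +37109 (chr13:98391276-98391425): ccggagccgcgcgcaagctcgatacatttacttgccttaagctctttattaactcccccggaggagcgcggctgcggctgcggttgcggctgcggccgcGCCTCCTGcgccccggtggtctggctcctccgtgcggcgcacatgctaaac
Foxd2 -4898 (chr4:114913696-114913845): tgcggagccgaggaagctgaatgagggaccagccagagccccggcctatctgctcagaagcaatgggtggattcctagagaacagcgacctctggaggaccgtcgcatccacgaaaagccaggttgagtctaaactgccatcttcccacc
Foxf2 +6835 (chr13:31632576-31632725): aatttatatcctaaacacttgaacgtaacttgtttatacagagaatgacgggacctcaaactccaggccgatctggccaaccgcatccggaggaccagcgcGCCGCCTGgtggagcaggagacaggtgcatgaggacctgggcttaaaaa
Foxf2 +33395 (chr13:31659136-31659285): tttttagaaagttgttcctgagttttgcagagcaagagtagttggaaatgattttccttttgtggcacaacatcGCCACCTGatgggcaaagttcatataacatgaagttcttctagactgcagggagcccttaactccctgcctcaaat
Foxf1 -20475 (chr8:121063836-121063985): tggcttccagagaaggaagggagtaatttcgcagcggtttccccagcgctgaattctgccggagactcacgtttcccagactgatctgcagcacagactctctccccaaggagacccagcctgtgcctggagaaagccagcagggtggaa

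Promoters of the forkhead genes were open almost throughout. A shared promoter peak was present at 7 of the 8 genes, against 64.2% of all protein-coding genes. Foxq1 was the exception. The count was also 7 in replicate 1 alone (67.3% of all genes) and 7 in replicate 2 alone (70.8% of all genes). Most of these promoters are CpG islands, in which CG dinucleotides are kept and which tend to be open in many tissues. The ratio of observed to expected CG dinucleotides in 1000 bp around the TSS was between 0.760 (Foxd1) and 0.995 (Foxc2) at the 7 open genes and 0.244 at the GENCODE start of Foxq1. Among genes in the top 25% by that ratio, which holds 6 of the 8 members, 97.1% had a shared promoter peak, so that an open promoter sets these genes little apart from other CpG-rich genes.

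Several of the promoters held more than 1 element. At 6 of the 8 genes there were 2 or more shared promoter peaks, against 30.1% of all genes. These 6 are the members among the CpG-rich genes, of which 51.2% had 2 or more. Foxf1 had 4, Foxc2 had 3, and Foxc1, Foxf2, Foxl1 and Foxd2 had 2 each, while Foxd1 had 1. The 16 shared promoter peaks had a median signal of 51 in replicate 1 and 82 in replicate 2, below the medians of 61 and 102 over all 22998 shared promoter peaks.

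Foxc1 and Foxc2, paralogs needed for skull, eye and vessel development, had the promoter peaks of highest mean rank over both libraries, although Foxd2 (77) was above Foxc2 (73) in replicate 1. The Foxc1 peak at -42 bp from the TSS had a signal of 84 in replicate 1 and 125 in replicate 2, and ranked in the top 28.6% of shared promoter peaks. The Foxc2 peak at -20 bp had 73 and 124. Both were accompanied by a weaker peak inside the gene, at +358 bp in Foxc1 (54 and 87) and at +600 bp in Foxc2 (46 and 76). By the mean rank of the strongest peak the order of the genes was Foxc1, Foxc2, Foxf1, Foxd2, Foxd1, Foxf2 and Foxl1.

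Foxf1 and Foxf2, the paralogs of gut, lung and palate mesenchyme, had leading shared promoter peaks that ranked below those of Foxc1 and Foxc2 and lay farther from the start. The strongest Foxf1 peak lay at -635 bp (72 and 112), next to a peak at -975 bp (51 and 93). Both also lie within 1 kb of a start of the noncoding Fendrr, at -1.28 kb, and serve as promoter peaks of either gene by position. Shared peaks at +425 bp (41 and 60) and +825 bp (31 and 57) fell inside the gene. Each library also had a Foxf1 peak at the start, at +25 bp in replicate 1 (61) and -55 bp in replicate 2 (104). These overlapped by less than the 75 bp set for sharing and were not counted as shared. Loss of Foxf2 causes cleft palate in mice. Its promoter held a peak at -205 bp (41 and 83) and one at +575 bp (51 and 74), so that replicate 1 ranked the inner peak higher and replicate 2 the upstream one. Both also lie within 1 kb of a start of the noncoding 1700018A04Rik, at -0.024 kb from Foxf2.

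Foxd1 and Foxd2, best known from kidney stroma and head mesenchyme, each had their highest-ranked shared promoter peak near the start. The Foxd1 peak at -31 bp had 66 and 112. The Foxd2 peak at -118 bp had 77 and 107, with another at -598 bp (54 and 81). Foxl1, a mesenchymal gene studied mostly in the gut, had the weakest promoter among the open genes, with a peak at -449 bp (36 and 71) and one at +871 bp (42 and 58).

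RefSeq promoter windows (build GRCm38.p6, 250 bases upstream of the RefSeq start) were at hand for 4 of the 8 genes, namely Foxc1, Foxf2, Foxd1 and Foxd2. Those of Foxf2 and Foxd2 are shown because both overlap a shared promoter peak and reach no annotated untranslated region. They are written in the direction of the gene, plus strand for Foxf2 and minus strand for Foxd2, with motif matches in capitals.
Foxf2 promoter (chr13:31625566-31625815): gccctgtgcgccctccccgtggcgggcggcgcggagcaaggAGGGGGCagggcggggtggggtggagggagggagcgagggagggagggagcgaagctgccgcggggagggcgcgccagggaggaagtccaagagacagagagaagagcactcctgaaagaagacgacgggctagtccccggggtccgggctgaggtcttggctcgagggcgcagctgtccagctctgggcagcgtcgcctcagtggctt
Foxd2 promoter (chr4:114908899-114909148): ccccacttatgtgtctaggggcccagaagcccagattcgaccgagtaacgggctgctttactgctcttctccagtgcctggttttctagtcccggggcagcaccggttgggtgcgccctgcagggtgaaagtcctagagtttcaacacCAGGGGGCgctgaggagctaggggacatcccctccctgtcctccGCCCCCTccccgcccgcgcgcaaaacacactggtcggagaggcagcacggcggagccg
Both were rich in G and C, at 71.6% for Foxf2 and 64.4% for Foxd2. The matches in capitals are the short CTCF core AGGGGGC in both, which 12.03% of 20054 such windows hold, and the wider core CAGNNGGC in Foxd2, which 23.9% hold.

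Foxq1, a gene of hair and epithelial differentiation, showed how far the reading depends on the gene model. Its GENCODE start had 0 peaks within 1 kb in either library. The RefSeq start lies 2036 bp farther along the gene, and a shared peak ended just before it, at -5 bp: chr13:31558016-31558165 in replicate 1 with a signal of 47, matched in replicate 2 by a peak of 82 whose midpoint lay at -39 bp from the RefSeq start. Shared peaks of 55 and 64, and of 55 and 106, followed at 1221 and 1841 bp downstream of it, over the Foxq1 coding exon. By the rule these peaks were counted for A530084C06Rik, an overlapping antisense coding model whose TSS is nearer. With RefSeq mRNA starts in place of GENCODE starts, 8 of the 8 genes had a shared promoter peak. For the other 7 genes the RefSeq and GENCODE starts differed by no more than that of Foxl1, which was -255 bp.

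**Figure D1:**
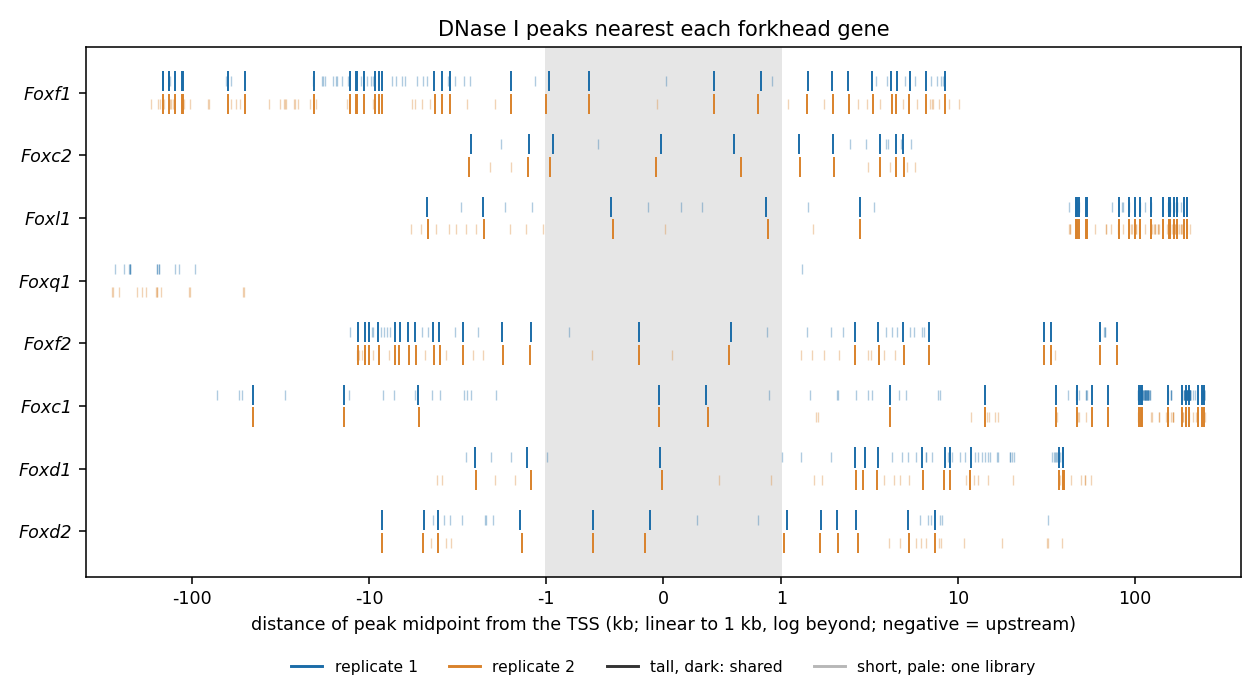
Every peak nearest to each of the 8 genes, by distance from the GENCODE TSS in kb (linear to 1 kb, logarithmic beyond), with replicate 1 in blue above and replicate 2 in orange below. Tall dark ticks are shared peaks and short pale ticks were found in 1 library, and the grey band is the promoter window. Foxq1 had no shared tick, and ticks lie mostly upstream of Foxf1 and downstream of Foxc1 and Foxl1, as their intervals do.

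Distal elements were dense around these genes. They had 121 shared distal peaks (118 separate sites in replicate 2), where 32.5 would fall to them if all 62952 were dealt out by the length of the genome nearest to each gene, a ratio of 3.73. Distal counts exceeded that length-based number at 7 of the 8 genes, against 44.1% of all genes. At least 1 shared distal peak was present at 7 of the 8 (62.8% of all genes), and 10 or more at 6 of the 8 (7.4% of all genes). The median was 15.5 per gene, against a median of 1 and a mean of 2.91 over all genes. The separate libraries gave 383 distal peaks in replicate 1 and 317 in replicate 2 for the 8 genes.

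**Figure D2:**
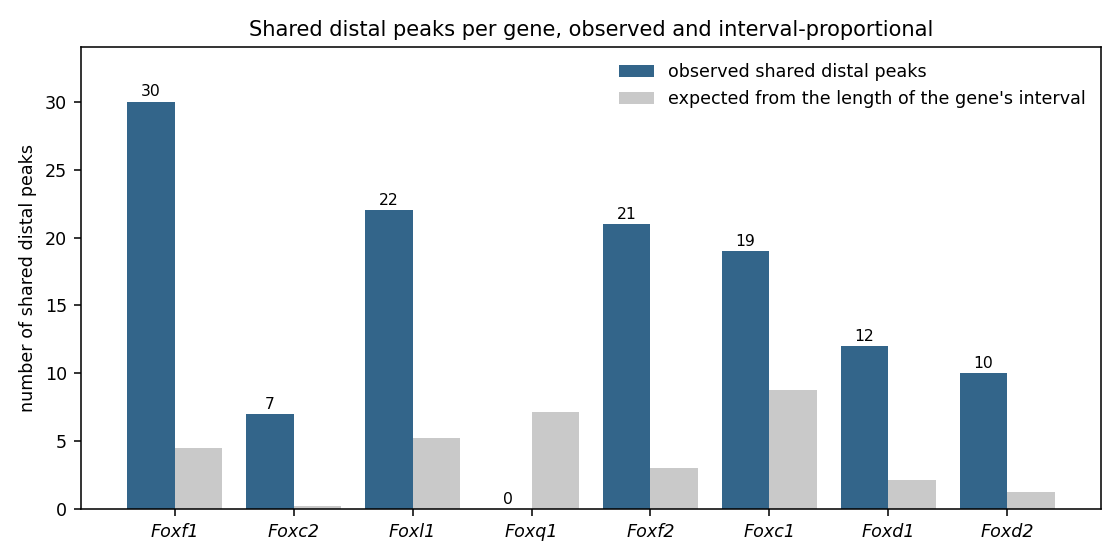
Shared distal peaks per gene (blue bars, number above) beside the number expected from the length of the gene's interval (grey bars). The observed bar is higher for 7 genes, and Foxq1 had 0 against 7.20.

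Shared distal peaks were found both close to the genes and far from them. Of the 121 peaks 61 (50.4%) were within 10 kb of the TSS, against 26.5% of all shared distal peaks, and the median distance was 9.99 kb against 30.7 kb. Within 10 kb, 5 of the 8 genes had 5 or more shared distal peaks, as did 2.44% of all genes: Foxf1 with 16, Foxf2 with 15, Foxd2 with 10, Foxd1 with 8 and Foxc2 with 7. Foxl1 had 3 and Foxc1 had 2 in that window. The 60 peaks beyond 10 kb were by themselves more than the 32.5 expected at all distances. Of these, 29 lay beyond 100 kb, and all of these belonged to Foxl1 (12), Foxc1 (10) and Foxf1 (7).

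In the Foxf1, Foxc2 and Foxl1 row on chromosome 8, the nearest-start rule gives the outer genes almost all of their interval on the outer side. The 3 TSSs span 43.6 kb, and 59 shared distal peaks were assigned to them, 5.89 times the number expected from length. Of the Foxf1 elements 21 of 30 (70.0%) lay upstream, as far as -147 kb, where 93.5% of its interval lies, and 12 of the 30 were inside introns of Fendrr, a long noncoding RNA gene that runs the other way from a start at -1.28 kb from Foxf1. Of the Foxl1 elements 20 of 22 (90.9%) lay downstream, as far as 199 kb, where 97.2% of its interval lies, with 9 of them in an intron of the noncoding Gm26815. The whole row also lies within the intron of Gm20388, a gene model that spans several genes, so that intronic here says little about position.

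Foxc2 sits between its neighbours in an interval of only 9.77 kb, which made its 7 shared distal peaks 29.1 times the 0.240 expected. Its element at -2640 bp was the highest-ranked distal peak of all 8 genes, with a signal of 88 in replicate 1 and 117 in replicate 2, in the top 1.35% of shared distal peaks. In replicate 1 it exceeded the 73 of the Foxc2 promoter peak, and in replicate 2 it was below the 124 there. The next were at +1260 bp (44 and 80) and +1960 bp (40 and 51).

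The strongest Foxl1 elements were Foxl1 -2269 (81 and 116) and Foxl1 +173291 (60 and 125), followed by one at +92331 bp (51 and 106). The first pair both exceeded the Foxl1 promoter peaks in both libraries. The element at +173291 bp had the highest replicate 2 signal of all distal peaks of the group, level with the Foxc1 promoter at 125. For Foxf1 the leading element, at +8485 bp (70 and 109), overlapped the untranslated region of the neighbouring Mthfsd. It was followed by Foxf1 -20475 (36 and 83) in a Fendrr intron and by a peak at +6605 bp (41 and 66). The median signals of all 30 Foxf1 shared distal peaks were 27.5 and 51, against 28 and 63 over all shared distal peaks.

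**Figure D3:**
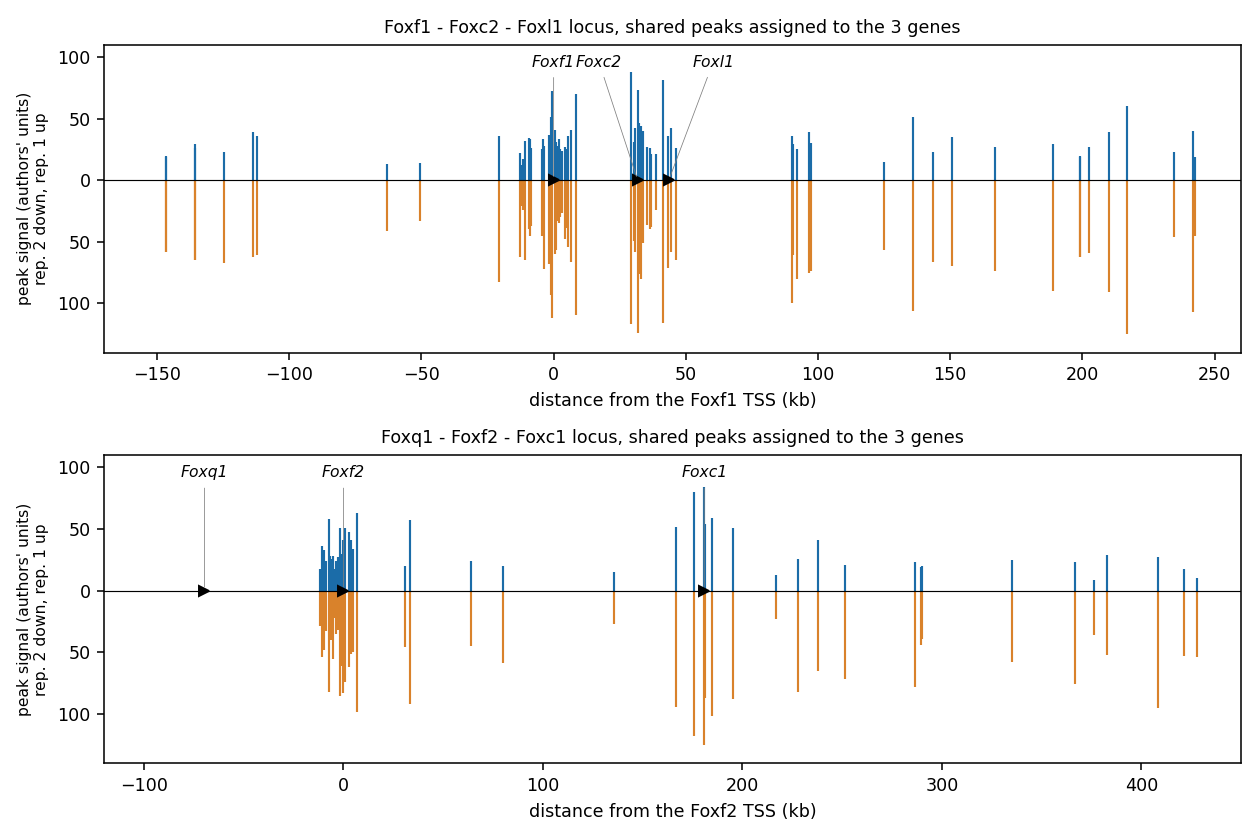
Shared peaks of the rows Foxf1, Foxc2, Foxl1 (top) and Foxq1, Foxf2, Foxc1 (bottom), by distance from the TSS of Foxf1 or Foxf2 in kb, with the authors' peak signal of replicate 1 upward in blue and replicate 2 downward in orange. Arrowheads are TSSs. The upper row held 59 shared distal peaks and the lower 40, with none assigned to Foxq1.

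In the Foxq1, Foxf2 and Foxc1 row on chromosome 13, the 3 TSSs span 250.5 kb and 40 shared distal peaks were assigned to them, 2.10 times the number expected from length. The 40 were uneven: Foxf2 had 21 (3.04 expected), Foxc1 had 19 (8.77 expected) and Foxq1 had 0 (7.20 expected). Foxf2 elements crowded the gene, with 15 within 10 kb and 13 inside an intron of the noncoding 1700018A04Rik, which starts beside Foxf2 (at -0.024 kb) and runs the other way. Its strongest elements were Foxf2 +6835 (63 and 98), Foxf2 +33395 (57 and 92) and one at -7105 bp (58 and 82).

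On the upstream side, which holds 26.9% of its interval, Foxf2 had 13 of its 21 shared distal peaks (61.9%).

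Foxc1 elements reached farther. Of its 19 shared distal peaks 16 lay downstream (84.2%), up to 247 kb away, where 74.6% of its interval lies, and 15 lay in introns of Gmds, the GDP-mannose dehydratase gene that follows it. Its strongest element, Foxc1 -5262 (80 and 118), was nevertheless on the upstream side, with a signal close to that of the promoter (84 and 125). The next were at +4118 bp in its own untranslated region (59 and 102) and at -13922 bp (52 and 94). The median signals of the 19 were 23 and 65.

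Foxq1 had 14 distal peaks in each library and 0 of them were shared. The unmatched peaks were mostly far upstream, 12 of 14 beyond 100 kb in either library, with median signals of 10 and 36 over all 14. With RefSeq starts Foxq1 gained 2 shared distal peaks, a ratio of 0.247 to the number expected, still below that number.

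Foxd1 and Foxd2 lie outside both rows, and another forkhead gene, Foxe3, lies at -17.1 kb from Foxd2. Foxd1 had 12 shared distal peaks (2.15 expected), 10 of them downstream (83.3%), where 78.7% of its interval lies. Foxd1 was led by Foxd1 +37109 (64 and 105), a peak at +11769 bp (53 and 89) and one at +3529 bp (46 and 47). Foxd2 had 10 (1.28 expected), all within 10 kb. It was led by Foxd2 -4898 (69 and 99) and Foxd2 -1398 (56 and 102), both inside the noncoding Foxd2os, and then by a peak at +5242 bp (42 and 69). That last peak lies within 1 kb of the start of the antisense gene 9130410C08Rik. Foxd2os starts at -0.384 kb from Foxd2, so that the Foxd2 promoter peaks serve as promoter peaks of either gene by position.

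Over all 121 shared distal peaks the signal ran in parallel in the 2 libraries, as a description across peaks that share both libraries. Pearson's r was 0.75 and Spearman's rho 0.63 (n = 121 peaks), against 0.84 and 0.84 over all shared distal peaks. For the 16 promoter peaks they were 0.92 and 0.87, against 0.93 and 0.94 over all shared promoter peaks. Some elements differed in rank: Foxc1 at +227598 bp had 27 in replicate 1, the 70.1th percentile of that library, and 95 in replicate 2, the 89.8th percentile. Foxd1 at +3529 bp had 46 and 47, the 85.6th and 57.6th percentiles. The distal elements of the group were of ordinary strength, with medians of 28 and 58 against 28 and 63 over all shared distal peaks.

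**Figure D4:**
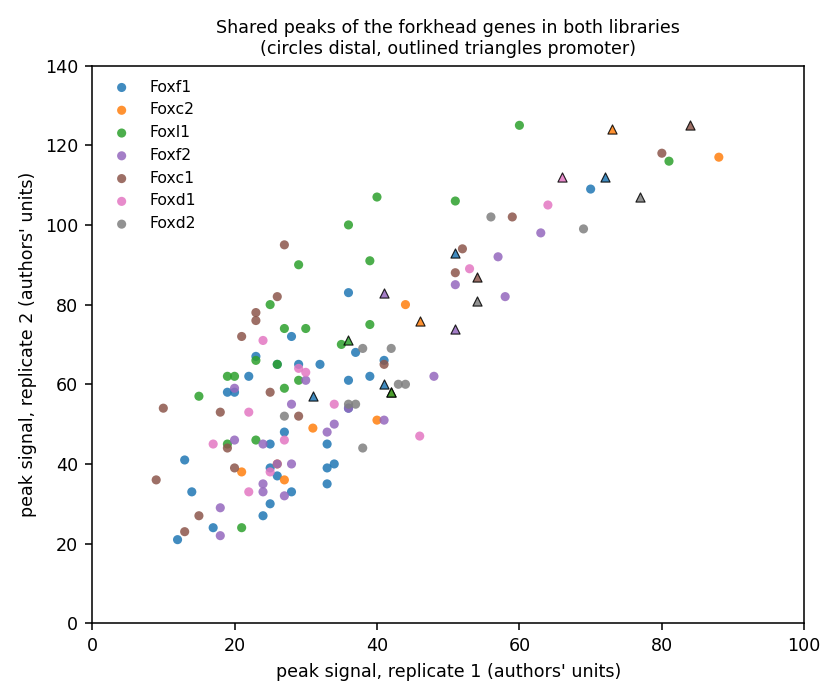
The authors' peak signal in replicate 1 (x) and replicate 2 (y) for each shared peak of the forkhead genes, coloured by gene, with circles for 121 distal and outlined triangles for 16 promoter peaks. Signals rise together, with wider scatter among the weaker distal peaks.

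Replicate matching was partial. Of the 383 distal peaks in replicate 1, 121 had a match in replicate 2, 31.6% (exact 95% interval 27.0 to 36.5), against 36.3% of all distal peaks of that library. Of the 317 in replicate 2, 118 had a match, 37.2% (31.9 to 42.8), against 34.2% overall. Such intervals cover only counting error and take each peak as independent, and peaks are not replicates. At Foxc1, 110 of its 129 distal peaks in replicate 1 were unmatched, with a median signal of 7, and 80 of those lay beyond 100 kb with a median of 5.5. Replicate 2 had 48 distal peaks there and 29 unmatched. Foxl1 differed in the other direction, with 44 distal peaks in replicate 1 and 71 in replicate 2. The best-matched genes in replicate 1 were Foxc2 (7 of 14) and Foxl1 (22 of 44). In replicate 2 they were Foxc2 and Foxf2 (53.8% each), while Foxl1 had the lowest share among the genes with any match (29.6%).

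Hotspots, the wider enriched regions that the authors called in each library, gave a second view. They covered 10.3% of the genome nearest to the 8 genes in replicate 1 and 8.79% in replicate 2, a mean of 9.54% ± 1.05 (SD, n = 2), against 2.30% and 2.61% over all genes. Foxc2 stood highest, with 77.8% and 82.2% of its short interval in hotspots. Foxd1 had 23.4% and 16.9%, Foxd2 18.9% and 20.6%, Foxf2 15.1% and 11.0%, Foxf1 12.7% and 13.9%, and Foxl1 6.96% and 11.5%. Foxc1 had 10.5% in replicate 1 and 4.15% in replicate 2, the widest relative gap between libraries, and Foxq1 was below the overall share in both, at 1.16% and 1.34%.

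Long hotspots were found at several of the genes. The widest at Foxd1 measured 7633 bp in replicate 1 and 6170 bp in replicate 2, and lay over the gene in both. At Foxf1 the widest were 5881 and 3413 bp, centred at different places, -8962 and -436 bp from the TSS. At Foxf2 they were 6166 and 1599 bp, so that Foxf2 had a long one in replicate 1 only. For Foxd2 (2756 and 2891 bp) and Foxc2 (2647 and 3018 bp) the widest hotspots were of like width in both libraries. Those of Foxd2 were centred at +6271 and +6488 bp. Those of Foxc2 were centred at +2972 and +79 bp, which are different places. The median hotspot of the 8 genes was 232 and 281 bp. The deposited −log10 q reached its ceiling of 100 at 27.1% and 25.9% of the hotspots of the 8 genes, against 29.4% and 35.2% of all hotspots.

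Sequence composition of the elements leaned towards G and C. The median GC content of the 121 distal peaks was 54.0%, against 50% over all shared distal peaks, and the median CpG ratio was 0.415 against 0.275. Within 10 kb of the TSS the GC medians were equal at 52.7%, while the CpG ratio was 0.481 against 0.325. The genes differed among themselves: median GC ran from 47.0% for Foxd1 and 47.3% for Foxc1 to 55.7% for Foxf1 and 56.0% for Foxd2, and Foxc2 had the highest CpG ratio at 0.788.

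Short motifs of common developmental or chromatin factors were counted on both strands of the 150-bp elements. A match is a run of letters, not evidence of binding. The forkhead core TGTTTNC was in 10 of 121 elements (8.26%, interval 4.03 to 14.7) against 14.7% of all shared distal peaks. Over all distal peaks of the 8 genes in a single library, matched or not, it was in 14.6% in replicate 1 and 12.6% in replicate 2. Shares over the single-library distal peaks of all genes were not computed for any motif. The single-library values here thus have no like background, and the shares of all shared distal peaks are not one. The E-box CAGATG, the form bound by Twist-type factors, was in 8.26% against 18.4%, and in 11.7% and 12.6% of the single-library peaks. The AP-1 site TGANTCA was in 0 of 121, which allows a share of up to 3.003% as the upper end of the exact interval, against 4.4% overall. That 0 held for shared elements only, since 1.83% of all distal peaks of the 8 genes in replicate 1 and 4.10% in replicate 2 held the site. The elements of the 8 genes were richer in G and C than all shared distal peaks (54.0% against 50%), and the part of that in these shares was not tested.

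Other motifs were near their overall shares or above them, with intervals that include the overall share. MEIS TGACAG was in 14.0% against 10.9%. It was in 14 of 60 elements beyond 10 kb (23.3%, against 11.5% of all such peaks) but 3 of 61 nearer ones (4.92%, against 9.21%). The 14 include overlapping Foxf1 peaks at -135535 and -135555 bp, which both hold a match. The split by distance is given for MEIS only, where it was widest among the motifs, and was not tested. Foxl1 +173291 held a MEIS match, with a TEAD match beside it. The GATA site, as AGATAA, was in 9.09% against 5.01%, AP-2 GCCNNNGGC in 8.26% against 6.26%, TEAD GGAATG in 9.92% against 10.5%, and the CTCF core AGGGGGC in 9.09% against 8.92%. Homeodomain TAATTA was in 4.13% against 3.74%, LEF/TCF CTTTGAA in 4.13% against 3.89%, SOX ACAATG in 5.79% against 7.04%, and nuclear receptor AGGTCA in 6.61% against 8.89%. The hedgehog effector site GLI, as GACCNCCCA, was in 1 of 121 (0.826%) against 0.47%.

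The AGGGGGC core overlaps the wider CTCF core CAGNNGGC, which was added after the sequences of the strongest elements were seen. In that display Foxc1 -5262, Foxd1 +37109, Foxf2 +6835 and Foxf2 +33395 hold it. Over all elements it was in 22 of 121 (18.2%) against 22.3% of shared distal peaks, so that the group as a whole did not have more of it.

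**Figure D5:**
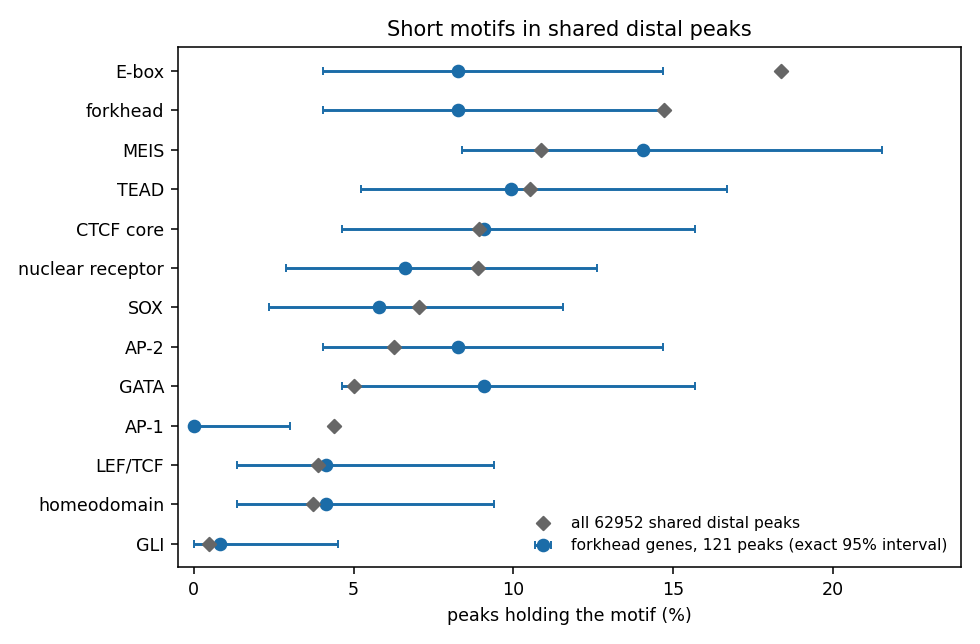
Share of shared distal peaks that hold each motif, for the 121 elements of the forkhead genes (blue points, exact 95% intervals for counting error) and for all 62952 (grey diamonds). The grey diamond lies beyond the interval, for these shared peaks, at the E-box, AP-1 and, narrowly, the forkhead core.

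Set beside relatives, the 8 genes were not alone in their density. Of 36 other forkhead genes 29 had a shared promoter peak, 24 exceeded the length-based number of distal peaks, and the median was 5 shared distal peaks against 15.5 for the 8. The most were at Foxp1 (31, with 22.3 expected), Foxb1 (28, with 6.59 expected), Foxa2 (22), Foxn3 (20), and Foxd3 and Foxo3 (19 each). No promoter peak was found in either library at Foxh1, Foxi1, Foxp3, Foxr1 and Foxr2. Of 16 hedgehog pathway genes 15 had a shared promoter peak, with a median of 8.5 shared distal peaks, led by Gas1 (30), a coreceptor, and the effectors Gli3 (24) and Gli2 (16). The list of facial and neural crest mesenchyme genes was at least as dense as the 8 forkhead genes: its median was 17.5, and 13 of 14 exceeded the length-based number, 12 of 14 had 10 or more and 10 of 14 had 5 or more within 10 kb. These differences between lists were not tested.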

How the data were processed

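DNase-seq libraries of 2 replicates of 1 group were analysed from the authors' peak and hotspot files. Both were called per library on mm10, per the labels and file notes; aligner and caller: not given in the sources used here. The deposited peak signal is a whole number per 150-bp peak in the authors' units, with no stated relation to depth, which is unknown. The deposited hotspot value is a −log10 q with a ceiling of 100.

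Peaks on chromosomes 1 to 19 and X were matched (75 bp overlap) and assigned by midpoint to 41135 TSSs of protein-coding genes (GENCODE M21 basic set), with sequence from GRCm38.p6. A gene's interval is the genome nearest its TSSs, without runs of N of 1000 bp or more. Expected counts share out all shared distal peaks by interval length. Shared peaks are the replicate 1 peaks with a match. Intervals are exact 95% binomial intervals. Mean rank is the mean of a peak's signal ranks in both libraries, each taken among the shared peaks. With 1 group no p-value was computed.

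The members and lists were chosen with earlier results of these data known. Named were all 8 members, their promoter and 3 leading shared distal peaks, the 5 other forkhead genes with most shared distal peaks (6 with a tie) and those without a promoter peak, and the 3 leading hedgehog genes. Further elements, named for their rank difference, were chosen after their values were seen. Alternatives varied the overlap, promoter window, peak strength, hotspot q, start sites, distance and replicate. Matching, assignment, intervals and motif search were tested on simulated data. Python 3.11.15, numpy 2.4.6, pandas 2.3.3, scipy 1.17.1, pysam 0.24.0 and matplotlib 3.10.9 were used.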

Additional observations from a re-analysis of the deposited data

How the results depend on the processing

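With an overlap of 90% of the peak width the genes with a shared promoter peak fell to 4, shared distal peaks to 20, the median to 2.5, the ratio to expectation to 1.98, and the matched share to 5.22%; other forkhead genes had 14 promoters and hedgehog genes 9. With 1 bp the median was 24 and the matched share 46.2%. The 50000 strongest peaks gave 26 distal peaks, a median of 3 and a ratio of 2.40. Motif shares among only these 26 were 3.85% for forkhead, 0 for SOX, 0 for GLI, 7.69% for MEIS, 3.85% for GATA, 0 for LEF/TCF and 34.6% for the wider CTCF core. The shares over all shared distal peaks of that strength were not computed, so these values have no like background. Hotspots with −log10 q of 10 or more gave 43 distal peaks, a median of 5, a matched share of 26.4% and 5.72% coverage. TSSs of all genes gave 34 distal peaks, a median of 3.5 and a ratio of 8.86. Within 100 kb the median was 10 and the matched share 36.7%; in the other direction the share was 37.2%. With single libraries in place of shared peaks, distal peaks numbered 317 to 383, the median was 36 to 44.5, AP-1 was in 1.83 to 4.10% and the wider CTCF core in 11.5 to 16.7%.

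Genes above expectation numbered 6 at 90% overlap, where Foxc2 had a ratio of 0, and 6 with TSSs of all genes, where Foxf2 had a ratio of 0; they numbered 7 in the other settings. With RefSeq starts, added after the data were seen, Foxd2 had 25 shared distal peaks and a ratio of 3.88. Single-gene ratios were less steady: Foxc1 had 1.92 to 5.34 in single libraries and 1.33 within 100 kb, and Foxf1 1.32 with the strongest peaks. Of recomputed summary values 35 moved and 100 stayed within limits; of single-gene values 78 moved, 2 reversed and 96 stayed. Unknown depth limits every count, and the cause of the changes was not tested.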

Other observations

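Of 18 gene models of any type with a start within 60 kb of a forkhead gene, 12 had a shared promoter peak, several of them the same peaks as the forkhead gene beside them. The other 6 had none (Gm11377, Gm11379, Gm21976, Gm2445, Gm37609 and Gm48883). The share was 64.2% over all protein-coding genes and was not computed over all gene models of any type. Mthfsd, a folate-metabolism gene model between Foxf1 and Foxc2, had a stronger promoter peak (107 in replicate 1 and 127 in replicate 2) than any of the 8 forkhead genes. Foxe3, a lens forkhead gene with a TSS at -17.1 kb from Foxd2, had a weaker one (34 and 48). The antisense 9130410C08Rik at +6.01 kb from Foxd2 had one of 42 and 69, which is the peak counted as distal for Foxd2 at +5242 bp. Btf3, at -37.2 kb from Foxd1, had one of 86 and 125, above the 66 and 112 of Foxd1. The noncoding Gm11378, at -6.65 kb from Foxf2, had 3 shared peaks within 1 kb of its start, the highest with 58 and 82, and these are among the distal peaks counted for Foxf2.

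Foxc1 had many downstream peaks found in replicate 1 alone: 26 lay between 100 and 150 kb from the TSS, 27 between 150 and 200 kb and 27 between 200 and 260 kb. They were not evenly spaced. Many formed dense runs of mostly low signal, as from +109638 to +121458 bp and from +189038 to +206478 bp. Replicate 1 had no peak between +121458 and +153938 bp. In the same windows replicate 2 alone had 6, 8 and 4, and the shared peaks numbered 3, 3 and 4. The cause of this difference was not tested.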
